A study of Mus musculus with 4 samples.

Results

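The genes described here are 8 members of the circadian clock, Arntl, Per1, Per2, Per3, Cry1, Nr1d1, Nr1d2 and Dbp, and the cold-inducible RNA-binding protein genes Cirbp and Rbm3, measured in single cells from mouse kidney glomeruli. They are 10 of the 52636 genes counted and were found by exact match of the gene symbol. They were picked by name, with no threshold, after differences between aged and young libraries had been seen in these same data. Their aged against young values are therefore a description and carry no test. The study compared untreated young with untreated aged mice, with 2 libraries in each group. Glomeruli were loaded with magnetic beads by perfusion, freed from the kidney by warm enzymatic digestion, dissociated by a second warm digestion, held on ice and put through a droplet kit that reads the 3′ end of transcripts with unique molecular identifiers (UMIs). The labels give the cell type as whole tissue and the ages only as young and aged, with no strain, sex, age in months, number of mice per library or time of day of collection. Whether collection time differed between the groups is thus unknown, and its part in any value below was not tested.

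The clock is a feedback loop that most mammalian cells carry. ARNTL (BMAL1) pairs with CLOCK and drives genes that hold an E-box in their promoters, among them the Per and Cry genes, Nr1d1, Nr1d2 and Dbp; PER and CRY proteins then repress that pair. NR1D1 and NR1D2 (the REV-ERBs) are nuclear receptors that repress Arntl through ROR elements, and DBP activates genes with a D-box. CIRBP and RBM3 are RNA-binding proteins whose transcripts rise under mild cold, and CIRBP transcripts also follow the daily cycle of body temperature. In the kidney the clock is known for its part in daily rhythms of filtration and salt handling.

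Promoter stretches are shown because they hold the letters through which these genes are known to be wired to one another. RefSeq promoter windows (GRCm38.p6, 250 bases before to 50 bases after a RefSeq transcript start) were matched for 8 of the 10 genes; Per2 and Rbm3 have no entry. Capitals mark the letters of any searched motif in the stretch, and each stretch is printed 5′ to 3′ on the strand of its gene. The motifs searched, on both strands, were the E-box CACGTG, the related E′-box CACGTT, the D-box TTATGTAA or TTACGTAA, the ROR element core AGGTCA, the cold-responsive octamer TCCCCGCC, the cAMP element TGACGTCA, the heat shock element GAANNTTC and the glucocorticoid element, by name.
Per1, chr11:69098743-69098828, plus strand, E-box and ROR element core (read from the other strand): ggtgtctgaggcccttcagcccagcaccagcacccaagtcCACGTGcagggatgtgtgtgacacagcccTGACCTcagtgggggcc
Cry1, chr10:85185069-85185173, minus strand, E′-box (read from the other strand) and E-box: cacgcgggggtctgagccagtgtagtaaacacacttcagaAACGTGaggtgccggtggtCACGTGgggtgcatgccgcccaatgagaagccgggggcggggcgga
Nr1d1, chr11:98775378-98775445, minus strand, E′-box (read from the other strand): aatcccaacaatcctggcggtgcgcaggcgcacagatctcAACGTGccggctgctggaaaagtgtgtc
Per3, chr4:151044791-151044895, minus strand, D-boxes: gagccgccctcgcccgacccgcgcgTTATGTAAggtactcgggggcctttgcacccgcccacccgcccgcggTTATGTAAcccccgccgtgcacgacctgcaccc
Arntl, chr7:113207530-113207559, plus strand, ROR element core: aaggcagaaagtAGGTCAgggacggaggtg
Cirbp, chr10:80167589-80167639, plus strand, cold-responsive octamer: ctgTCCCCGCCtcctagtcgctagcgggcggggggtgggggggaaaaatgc

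The E-box of Per1 began 166 bases before the start used for its window and that of Cry1 60 bases before it, and 7.15% of the 32851 mouse promoter windows hold one. These were the only 2 of the 8 genes with an E-box in these short windows. Per3, Nr1d1, Nr1d2 and Dbp had none there, and Dbp held none of the searched motifs. The E′-box was found in Cry1 and Nr1d1 and in 4.685% of all windows. Per3 was the one member with a D-box and held it in 2 places, 205 and 158 bases before its start, against 1.056% of windows with any. The ROR element core, a 6-letter motif found in 16.26% of windows, was in Arntl, Per1 and Nr1d2. In Arntl it lay 32 bases after the start of the window that holds it, and in Per1 and Nr1d2 137 and 77 bases before the start. The cold-responsive octamer was in Arntl and Cirbp and in 5.382% of windows. None of the 8 genes had the heat shock, glucocorticoid or cAMP element in its windows, against 7.86%, 0.4749% and 1.79% of all windows. For Per1 and Cirbp the window's start lies inside the gene as annotated, whose first base is at 69095217 on chromosome 11 and 80165985 on chromosome 10. These matches describe letters, and no binding was measured.

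The 4 libraries held 5532 to 10621 barcodes and 18457791 to 42046542 UMIs, and 28000 cells were kept. Clustering gave 21 clusters, of which 14 were named by fixed marker genes, among them podocytes, endothelial cells and mesangial cells. Young replicate 2 stands apart: 67.7% of its cells were given no class, against 12.3% to 16.95% in the other libraries, and its median depth was 1258 UMIs per cell against 2715 to 3730. Without it, the log2 fold changes of aged against young were -1.37 (SE 0.23) and -1.65 (SE 0.26) for endothelial and mesangial Cirbp, 1.64 (SE 0.28) and 1.57 (SE 0.42) for podocyte and endothelial Per2, and 1.19 (SE 0.21) and -1.01 (SE 0.24) for endothelial and mesangial Dbp. A small cluster, number 16, matched parietal epithelial markers best (6 of 7 detected), but no such marker is among its 10 leading genes and the smooth muscle marker Tagln is, so it is called cluster 16. Libraries shared 9 to 31 barcodes per pair. Nothing in the labels says that the libraries of a group came from separate animals, so p-values measure the spread between these libraries, which may be technical. In summed UMIs, fewer cells that express a gene and less RNA per cell cannot be told apart. UMIs were summed per class and library and scaled to CPM, the usual unit that corrects a count for library size, with edgeR's TMM factors within each class; fold changes are aged minus young on the log2 scale with the standard error (SE) of edgeR's fit.

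Cirbp stood lower in both aged libraries than in both young libraries in each of the 4 classes. In podocytes it had 130.6 and 71.5 CPM in young replicates 1 and 2 and 50.7 and 29.4 CPM in aged replicates 1 and 2. In endothelial cells the levels were 45.3 and 40.8 CPM in the young and 22.6 and 12.3 CPM in the aged libraries. Mesangial cells held 58.5 and 59.6 CPM against 21 and 16.5 CPM. The young values lay above the aged values throughout, and aged replicate 2 had the lowest Cirbp level of the 4 libraries in every class. The log2 fold change was -1.37 (SE 0.24) in podocytes, -1.30 (SE 0.22) in endothelial cells and -1.66 (SE 0.21) in mesangial cells. Of the 3 named classes, podocytes moved the most when a library was left out, from -0.82 without young replicate 1 to -1.82 without aged replicate 1; without young replicate 2 the value was -1.70. In cluster 16, with 29 to 55 cells per library, Cirbp had 79.0 and 166.2 CPM in young and 59.5 and 38.5 CPM in aged libraries, from 10 to 26 UMIs each. The fold change there was -1.41 (SE 0.42), with -0.70 (SE 0.59) without young replicate 2 and -1.75 without young replicate 1.

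Rbm3, the other cold-inducible gene, showed no such separation of the groups. Podocytes held 269.7 and 221.2 CPM in young and 269.5 and 221.4 CPM in aged libraries. In endothelial cells the levels were 254.3 and 246.9 CPM against 325.8 and 233.6 CPM. Young and aged libraries overlapped in all 4 classes, and aged replicate 1 lay above aged replicate 2 in each. The log2 fold changes were -0.01 (SE 0.15), 0.16 (SE 0.17), 0.19 (SE 0.18) and 0.40 (SE 0.25) in podocytes, endothelial cells, mesangial cells and cluster 16. These Rbm3 levels rest on 279 to 4565 UMIs per library in the 3 named classes. A processed copy, Rbm3-ps, had 7 to 13 UMIs per library, and an antisense gene, Rbm3os, overlaps Rbm3 on chromosome X; whether counting used the strand is not given in the sources used here, which also holds for the opposite-strand neighbours named below.

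**Figure D1:**
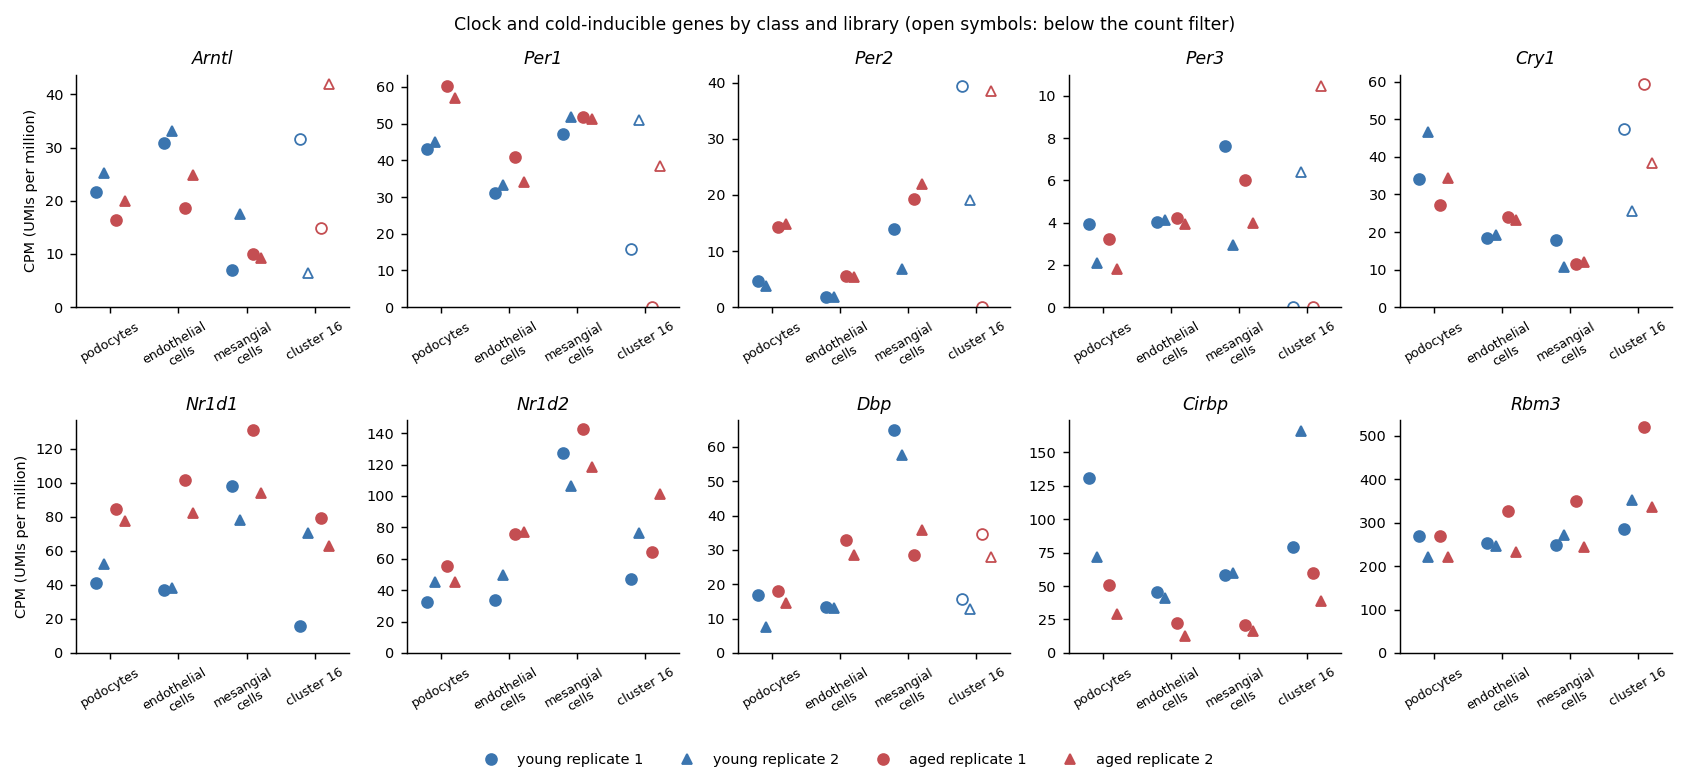
Level of each of the 10 genes (CPM, linear axis from 0) in podocytes, endothelial cells, mesangial cells and cluster 16; blue symbols are young and red symbols aged libraries, circles replicate 1 and triangles replicate 2, and open symbols are genes below the count filter in that class. Red symbols lie below blue ones for Cirbp in every class, while for Dbp they lie above blue ones in endothelial cells and below them in mesangial cells.

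The REV-ERB genes stood higher in aged endothelial cells. Nr1d1 had 37.1 and 38.2 CPM in the young and 101.6 and 82.3 CPM in the aged libraries there, a log2 fold change of 1.29 (SE 0.15). Nr1d2 had 33.9 and 49.7 CPM against 76.1 and 77.2 CPM, a fold change of 0.89 (SE 0.17). Neither gene's groups overlapped in endothelial cells, and without young replicate 2 the fold changes were 1.31 and 1.18. In podocytes Nr1d1 had 40.9 and 52.1 CPM in young and 84.2 and 77.2 CPM in aged libraries (0.83, SE 0.16, and 0.98 without young replicate 2). Podocyte Nr1d2 differed less, from 32.7 and 45.1 CPM to 55.1 and 45.5 CPM (0.42, SE 0.18), and its fold change ran from 0.17 without young replicate 1 to 0.62 without young replicate 2. In mesangial cells young and aged libraries overlapped for both genes. Nr1d1 had 97.9 and 78.2 CPM in young and 130.8 and 93.7 CPM in aged libraries there (0.34, SE 0.20). Mesangial Nr1d2 had 127.2 and 106.5 CPM against 142.7 and 118.5 CPM (0.15, SE 0.17). In cluster 16 young and aged libraries overlapped for both genes, and the Nr1d1 value, 0.60 (SE 0.51), ran from 0.04 without young replicate 1 to 2.13 without young replicate 2. Nr1d1 overlaps Thra on the opposite strand.

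Among the repressors of the ARNTL and CLOCK pair, Per2 stood higher in the aged libraries of all 3 named classes, from few UMIs. In podocytes it had 4.62 and 3.72 CPM (27 and 9 UMIs) in young and 14.2 and 14.8 CPM (62 and 57 UMIs) in aged libraries, a log2 fold change of 1.74 (SE 0.28). Endothelial cells had 1.85 and 1.80 CPM (11 and 7 UMIs) against 5.57 and 5.45 CPM (78 and 72 UMIs), a fold change of 1.58 (SE 0.34). The aged level was thus about the same in both replicates of each of these classes and above both young levels. Mesangial cells held 14.0 and 6.84 CPM in young and 19.3 and 22.0 CPM in aged libraries (0.91, SE 0.33), with 0.56 without young replicate 2 and 1.60 without young replicate 1. Per1, which also answers to glucocorticoids and cAMP, differed less: in podocytes 43.0 and 45.1 CPM stood against 60.4 and 56.9 CPM (0.42, SE 0.15). Endothelial Per1 had 31.0 and 33.3 CPM in young and 40.9 and 34.2 CPM in aged libraries (0.23, SE 0.15), and its mesangial groups overlapped at 0.07 (SE 0.18). Per3 overlapped between the groups in every class, with 3 to 59 UMIs per library in the named classes and fold changes of -0.36 (SE 0.50), 0.00 (SE 0.30) and -0.20 (SE 0.51). Per3 lies on the same strand as the overlapping gene Camta1, so its few reads are uncertain. Cry1 had 18.5 and 19.2 CPM in young and 24.1 and 23.1 CPM in aged endothelial libraries (0.32, SE 0.16). Its podocyte and mesangial groups overlapped, at -0.36 (SE 0.19) and -0.33 (SE 0.33).

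Arntl, the activator, stood lower in the aged libraries of endothelial cells and podocytes. Endothelial cells had 30.8 and 33.1 CPM in young and 18.6 and 24.8 CPM in aged libraries, a log2 fold change of -0.56 (SE 0.17), with -0.35 without aged replicate 1 and -0.78 without aged replicate 2. Podocytes had 21.7 and 25.2 CPM against 16.3 and 20.0 CPM (-0.35, SE 0.20). In mesangial cells the groups overlapped, with 11 to 47 UMIs per library, and the sign of the fold change changed without 1 library: -0.26 (SE 0.41) with all 4 and 0.45 (SE 0.49) without young replicate 2. In the podocyte and endothelial sums Arntl and Nr1d1, which encodes its repressor, thus lay on opposite sides of the young libraries. Within podocyte cluster 7, described below, Nr1d1 overlapped between the groups. A link between these genes was not tested.

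Dbp, the output factor that binds D-boxes, differed in sign between classes. Endothelial cells had 13.5 and 13.1 CPM in young and 32.9 and 28.5 CPM in aged libraries, a log2 fold change of 1.21 (SE 0.17). Mesangial cells had 64.9 and 57.6 CPM in young and 28.5 and 35.7 CPM in aged libraries, a fold change of -0.93 (SE 0.20). Neither pair of groups overlapped, so every aged library lay above the young ones in endothelial cells and below them in mesangial cells. In a joint fit the mesangial fold change minus the endothelial one was -2.09 (SE 0.24), and for Cirbp the same difference was -0.26 (SE 0.23); both are descriptions. In podocytes the groups overlapped and the value moved most with the young libraries: 0.29 (SE 0.27) with all 4, -0.04 without young replicate 2 and 1.14 without young replicate 1. When cells of mixed marker content were kept, the mesangial value was -0.44. Dbp overlaps Sphk2 on the opposite strand. Endothelial markers in mesangial sums reached 14.8% and 14.79% of their endothelial level in young and 18.58% and 19.63% in aged libraries, with none of the 10 markers at 0; the part of endothelial RNA in the mesangial values was not tested.

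**Figure D2:**
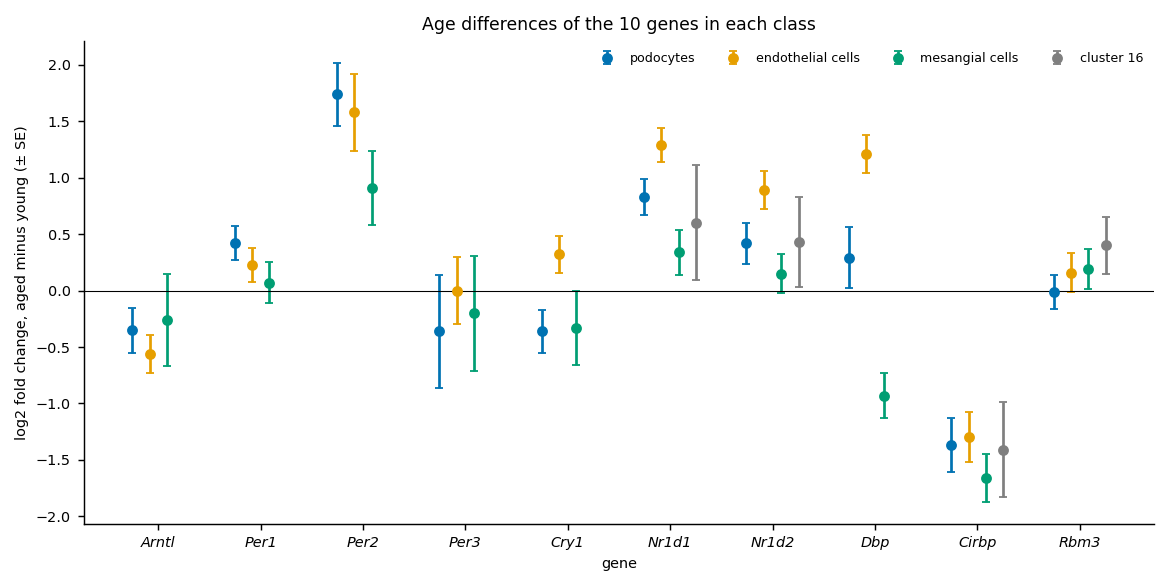
Log2 fold change, aged minus young, of each gene with its SE in the classes where it passed the count filter; colours are classes. Cirbp lies between -1.66 and -1.30 in all 4, Rbm3 near 0, and Dbp at 1.21 in endothelial and -0.93 in mesangial cells.

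Counted by the threshold used for all genes (edgeR's quasi-likelihood test, Benjamini-Hochberg adjusted over all tested genes, 0.05), 3 of 10 members were past it in podocytes, 2 higher and 1 lower, where 3.84% of 10521 tested genes were, 2.68% higher and 1.16% lower. In endothelial cells 4 were higher and 1 lower, against 5.55% of 12941 genes, 3.70% higher and 1.85% lower. In mesangial cells 2 were lower, against 5.95% of 10546 genes, 3.79% higher and 2.15% lower. In cluster 16 none of the 4 members that passed the count filter was past it, against 3.43% of 3846 genes (1.72% higher and 1.72% lower), and Arntl, Per1, Per2, Per3, Cry1 and Dbp did not pass that filter. Without regard to the threshold, aged libraries lay above the young ones for 4 members and below for 2 in podocytes, where 22.6% and 22.2% of genes did so. In endothelial cells the counts were 6 and 2 (24.4% and 24.4% of genes), in mesangial cells 1 and 2 (26.2% and 27.0%) and in cluster 16 0 and 1 of the 4 (24.0% and 24.5%). Since this contrast chose the members, nothing is read from these counts. With mixed cells kept, no member and 28 of all genes were past the threshold in podocytes.

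The age pattern was also described within the 9 clusters that make up these 4 classes. Cirbp was lower in both aged than in both young libraries in 7 of 9 clusters and overlapped in endothelial clusters 4 and 11. In cluster 4 young replicate 2 had 6.53 CPM of the cluster's UMIs, from 1 UMI, below both aged libraries. In cluster 11 aged replicate 1 (59.6 CPM, 23 UMIs) lay above young replicate 1 (52.6 CPM, 13 UMIs). Per2 was higher in 7, Nr1d1 in 6 and Dbp in 6 of 9, and Nr1d1 was so in all 5 endothelial clusters. Rbm3 overlapped in all 9. Some Per2 counts rest on very few UMIs, with 4, 0, 2 and 3 in cluster 7 and 1, 2, 5 and 6 in cluster 5 (young replicates, then aged). Shares over all genes were not counted by cluster, and by class they were 22.2% to 27.0% in each direction. Nothing is therefore read from these cluster counts. The podocyte clusters differed in which clock genes separated the groups. In cluster 2 Nr1d1 had 54.6 and 61.4 CPM (of the cluster's UMIs, without TMM) in young and 100.3 and 88.7 in aged libraries. In cluster 7 Nr1d1 had 16.2 and 33.0 against 28.8 and 19.4, with overlap. Per1 showed the reverse, with overlap in cluster 2 and, in cluster 7, 17.6 and 18.1 in young against 51.6 and 54.5 CPM in aged libraries. Cirbp was lower in the aged libraries of both podocyte clusters, from 155.6 and 94.0 to 66.5 and 33.9 in cluster 7. Cluster 2 held 716, 285, 507 and 358 podocytes of young replicates 1 and 2 and aged replicates 1 and 2, and cluster 7 held 661, 166, 281 and 176, so the makeup of the podocyte sums differed between libraries. None of the 10 genes was among the variable genes used for clustering.

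**Figure D3:**
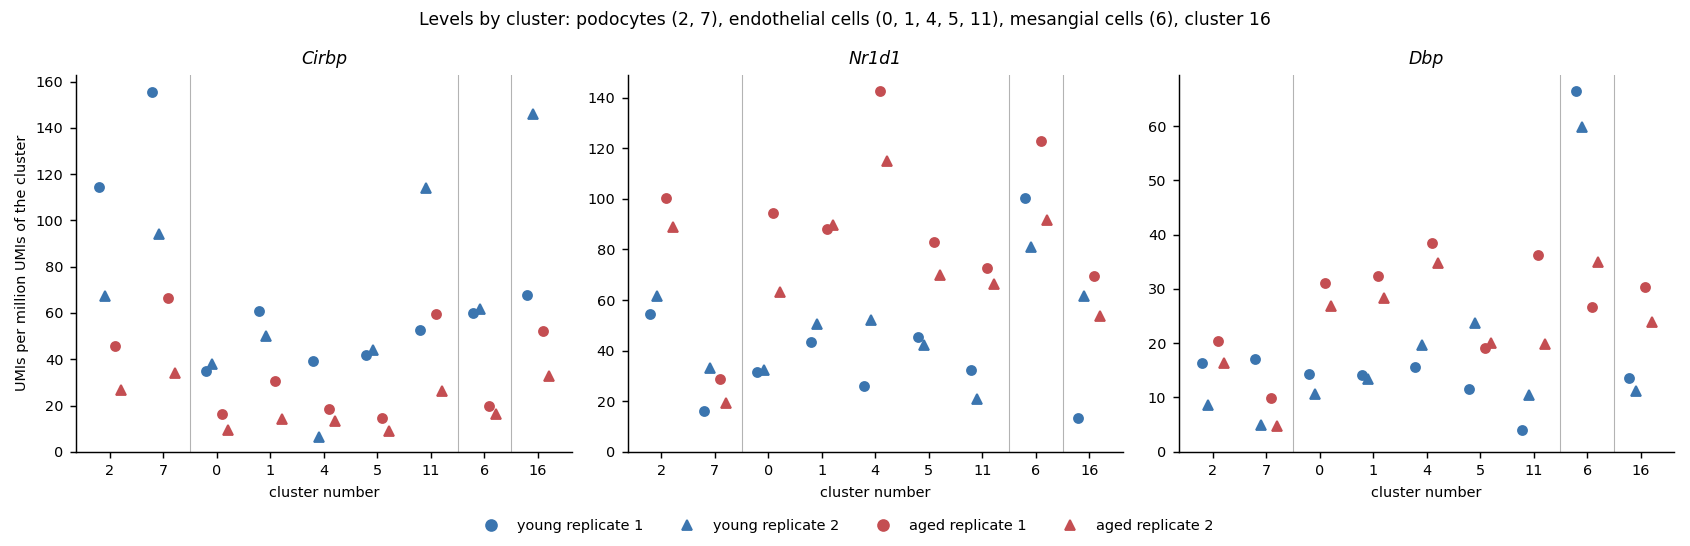
Levels of Cirbp, Nr1d1 and Dbp (CPM of the cluster's UMIs, without TMM, linear axis from 0) in each cluster and library; vertical lines part podocyte, endothelial and mesangial clusters and cluster 16, blue symbols are young and red symbols aged. Cirbp lies lower in aged libraries in 7 of 9 clusters, and Dbp lies lower in aged libraries in mesangial cluster 6 alone.

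Outside the glomerular classes, 3 others had at least 20 cells in every library, and their sums were too thin for more than a description. In smooth muscle and renin cells (36 to 69 cells per library) Cirbp had 128.0 and 101.1 CPM (of the class's UMIs, without TMM) in young and 38.3 and 26.3 in aged libraries, from 27, 23, 8 and 4 UMIs. In B cells it had 160.3 and 109.1 against 178.5 and 175.1, from 9 to 23 UMIs, with both aged libraries above the young ones. Monocytes and dendritic cells had 14.5 and 28.0 against 20.9 and 18.1, with overlap. The aged libraries thus lay below the young ones in smooth muscle and renin cells, above them in B cells and among them in monocytes and dendritic cells. Macrophages came almost wholly from the aged libraries (3, 7, 540 and 482 cells), where Cirbp had 13.3 and 12.4 CPM and Rbm3 413.5 and 364.7.

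Shares of cells with at least 1 Cirbp UMI were compared after thinning each cell to 1000 UMIs, since aged podocytes and mesangial cells were deeper. Of podocytes, 11.87% and 7.728% had one in young and 4.701% and 3.202% in aged libraries, at median depths before thinning of 4096, 5577, 5774 and 7660 UMIs; 4, 24, 1 and 3 shallower cells were left out. Of mesangial cells, 5.861% and 6.289% had one in young and 1.459% and 1.86% in aged libraries, at median depths of 3881, 3726, 4666 and 7044 UMIs. Of endothelial cells, the shares were 4.369% and 3.925% against 1.983% and 1.101%, at median depths of 2305, 2776, 2340 and 3226 UMIs. The 95% exact binomial intervals, which cover counting error only, were 10.21 to 13.7% for podocytes of young replicate 1 and 1.876 to 5.077% for those of aged replicate 2. Without thinning the podocyte shares were 40.38%, 30.82%, 23.98% and 17.6% in the same order. No cell type is known to lack Cirbp, so the part of free RNA in these shares was not tested.

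Between classes, a contrast that did not choose the members, most of the 10 genes differed among podocytes, endothelial and mesangial cells, as did most genes. Tests compared sums of both classes in the 4 libraries with the library as a block, and levels below are means ± SD of 4 libraries on a scale set over all 16 sums. Between podocytes and endothelial cells 7 of 10 members passed (77.6% of all tested genes did), between podocytes and mesangial cells 8 of 10 (69.7%), and between endothelial and mesangial cells 7 of 10 (59.4%). Against cluster 16, 1 of 9 passed for podocytes (39.2%), 3 of 9 for endothelial cells (43.8%) and 6 of 8 for mesangial cells (42.5%). These shares stand beside backgrounds of 39.2% to 77.6%, so passing the test was common for any gene.

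Of the 4 classes, mesangial cells held the highest levels of the REV-ERB genes and Dbp. Nr1d2 had 129.8 ± 16.9 CPM in mesangial cells, 63.9 ± 23.3 in endothelial cells, 53.5 ± 18.9 in cluster 16 and 47.0 ± 9.78 in podocytes. The mesangial level was above the endothelial one by 1.11 on the log2 scale (SE 0.17, edgeR adjusted p = 0.000188) and higher in 4 of 4 libraries, while endothelial cells and cluster 16 differed by -0.18 (SE 0.22, edgeR adjusted p = 0.557). Nr1d1 had 105.2 ± 24.1 CPM in mesangial cells, above endothelial cells (70.0 ± 35.4) by 0.69 (SE 0.17, edgeR adjusted p = 0.00535). The gap was wider in young libraries, with 102.4 and 81.3 against 39.4 and 40.9 CPM. In aged libraries 138.7 and 98.3 CPM stood against 110.2 and 89.3. Podocytes (67.0 ± 21.7) and endothelial cells were not told apart for Nr1d1 (0.08, SE 0.11, edgeR adjusted p = 0.54). Dbp had 48.9 ± 17.9 CPM in mesangial cells and 23.7 ± 11.2 in endothelial cells, and the difference of 0.91 (SE 0.34, edgeR adjusted p = 0.0397) was lost when library totals replaced TMM. The young libraries differed most, with 67.9 and 60.0 against 14.3 and 14.0 CPM, whereas in the aged libraries 30.2 and 37.5 CPM stood against 35.7 and 30.9. Dbp in cluster 16 (16.9 ± 8.19) and podocytes (15 ± 5.08) differed by 0.40 (SE 0.40, edgeR adjusted p = 0.472).

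Of podocytes, endothelial and mesangial cells, the activator and Cry1 were lowest in mesangial cells. Arntl had 28.8 ± 6.80 CPM in endothelial cells, 21.9 ± 3.82 in podocytes, 17.5 ± 12.3 in cluster 16 and 11.5 ± 4.75 in mesangial cells. Endothelial cells were above podocytes by 0.44 (SE 0.11, edgeR adjusted p = 0.00394), and the mesangial minus podocyte difference was -0.92 (SE 0.21, edgeR adjusted p = 0.00252), with podocytes higher in 4 of 4 libraries. Mesangial cells and cluster 16 were not tested for Arntl, and in young replicate 2 cluster 16 was the lower, with 4.53 against 18.3 CPM. Cry1 had 37.4 ± 8.42 CPM in podocytes, 31.3 ± 10.9 in cluster 16, 22.9 ± 3.17 in endothelial cells and 13.6 ± 3.37 in mesangial cells. Podocytes and cluster 16 did not differ beyond their spread (-0.04, SE 0.32, edgeR adjusted p = 0.931), and endothelial cells were above mesangial cells in 4 of 4 libraries (edgeR adjusted p = 0.00335). Across the 3 named classes, then, the class with the most Nr1d1 and Nr1d2 had the least Arntl and Cry1. This order did not extend to endothelial cells and podocytes. Endothelial cells had more Arntl than podocytes and also more Nr1d2 (0.47, SE 0.12, edgeR adjusted p = 0.0057).

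The Per genes were ordered differently. Per2 had 17.7 ± 13.8 CPM in cluster 16, 16.3 ± 7.09 in mesangial cells, 9.85 ± 6.32 in podocytes and 3.96 ± 2.33 in endothelial cells. Mesangial cells were above podocytes by 0.81 (SE 0.22, edgeR adjusted p = 0.00785) and above endothelial cells by 2.08 (SE 0.21, edgeR adjusted p = 8.17e-06), higher in 4 of 4 libraries each time. Cluster 16 and mesangial cells were not told apart for Per2 (edgeR adjusted p = 0.838). Per1 was not told apart between podocytes (54.1 ± 9.18 CPM) and mesangial cells (53.0 ± 2.58; 0.01, SE 0.12, edgeR adjusted p = 0.944), and was lower in endothelial cells (37.5 ± 4.85) than in either in 4 of 4 libraries (edgeR adjusted p = 0.000704 and 0.000729). Per3, with 2.91 ± 1.06 CPM in podocytes and 5.40 ± 2.22 in mesangial cells, passed between those 2 classes alone of the 3 pairs in which it was tested (0.97, SE 0.30, edgeR adjusted p = 0.0139).

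Of the 4 classes, Cirbp had its highest mean in podocytes, with 74.4 ± 46.1 CPM, followed by cluster 16 (61.7 ± 38.8), mesangial cells (40.7 ± 24.2) and endothelial cells (32.5 ± 16.3). The endothelial minus podocyte difference was -1.12 on the log2 scale (SE 0.12, edgeR adjusted p = 1.25e-05) and the mesangial minus podocyte difference -0.87 (SE 0.16, edgeR adjusted p = 0.000675), with podocytes higher in 4 of 4 libraries both times. Podocytes and cluster 16 (-0.02, SE 0.26) and endothelial and mesangial cells (0.31, SE 0.13, edgeR adjusted p = 0.0568) were not told apart. Each spread spans young and aged libraries together. Rbm3 ranged from 258.7 ± 31.0 CPM in podocytes to 292.7 ± 53.0 in mesangial cells, and passed in none of the 6 pairs with TMM; with library totals it passed between podocytes and cluster 16. Podocyte markers in endothelial sums ran from 3.223% to 5.299% of their podocyte level, with none of the 10 at 0, and the part of such carried-over RNA in the class differences was not tested. TMM moved the median log2 difference against cluster 16 by -0.17, -0.28 and -0.20 for podocytes, endothelial and mesangial cells relative to library totals. The share of calls higher in cluster 16 was then 52.2% in place of 64.2% against podocytes, 45.2% in place of 60.3% against endothelial cells and 47.9% in place of 61.5% against mesangial cells.

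**Figure D4:**
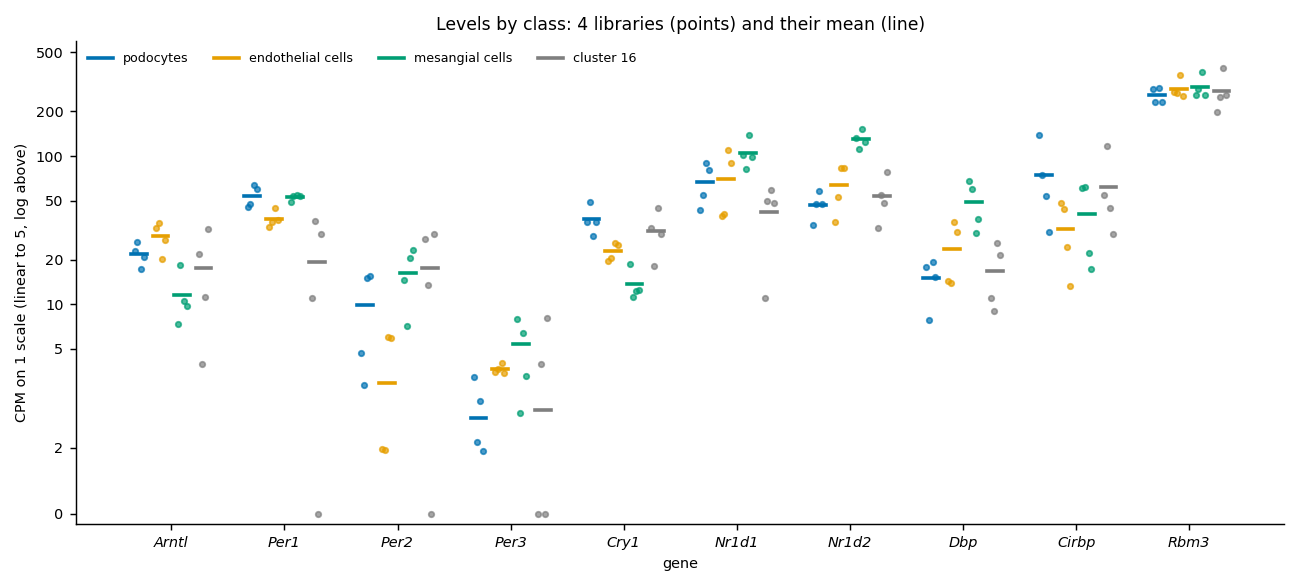
Level of each gene by class on a scale set over all 16 sums (CPM, linear to 5 and logarithmic above); points are the 4 libraries and lines their mean. Of these 4 classes, the means of Nr1d1, Nr1d2 and Dbp are highest in mesangial cells, those of Arntl and Cry1 lowest there, and that of Cirbp highest in podocytes.

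The other genes of the clock were read from 6 fixed lists of 25 genes without the members: E-box activators, E-box repressors, ROR-element factors, PAR bZIP factors, clock kinases and ubiquitin ligases, and output genes. All lists were chosen with earlier results of these data known, so their p-values are no independent evidence. In podocytes 1 of 21 tested genes passed, higher in aged libraries, and the median log2 fold change was 0.09 against 0.00 over all genes. In endothelial cells 4 of 22 passed, all higher, with a median of 0.33 against -0.01. In mesangial cells 4 of 20 were higher and 1 lower, with a median of 0.26 against -0.01, and in cluster 16 none of 9 passed edgeR's test, and 0 had an unadjusted p under 0.05 (median 0.30 against 0.00). DESeq2 gave 1, 1, 3 and 0 in these classes.

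Bhlhe40, which encodes a repressor that binds E-boxes, rose in 3 classes. It had 90.9 and 133.9 CPM in young and 209.8 and 217.0 CPM in aged podocyte libraries (log2 fold change 0.95, SE 0.16, edgeR adjusted p = 0.00207). In mesangial cells it had 90.9 and 89.9 against 239.5 and 213.5 CPM (1.32, SE 0.16, edgeR adjusted p = 0.000652), and in endothelial cells 176.9 and 193.6 against 305.7 and 283.1 CPM (0.67, SE 0.15, edgeR adjusted p = 0.0118). No groups overlapped in these classes, while in cluster 16 they did. Endothelial cells also had more Ciart (1.51, SE 0.39), another repressor of the loop, more Bhlhe41 (1.12, SE 0.27), a paralogue of Bhlhe40, and more Hlf (1.17, SE 0.27), which binds D-boxes as DBP does; edgeR adjusted p-values were 0.0334, 0.022 and 0.0165. Ciart had 1.52 and 1.54 CPM in young and 5.14 and 3.56 CPM in aged libraries. None of these endothelial calls but that of Bhlhe40 was kept by DESeq2. Ciart lost its call without aged replicate 1 or either young library, Bhlhe41 without aged replicate 1 or young replicate 1, Hlf without either young library, and Bhlhe40 without aged replicate 1.

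In mesangial cells Por passed the test higher in aged libraries, as Bhlhe40 did, under all 13 alternatives, while the calls of Rora, Nfil3 and Npas2 depended on the libraries and, for Rora and Npas2, on the tool. Rora, an activator through ROR elements, rose from 150.1 and 147.5 to 218.7 and 225.4 CPM (0.58, SE 0.15, edgeR adjusted p = 0.0412). Nfil3, a repressor through D-boxes, rose from 86.5 and 88.9 to 194.3 and 129.4 CPM (0.88, SE 0.20, edgeR adjusted p = 0.0277), and Por, a redox partner of cytochrome P450 enzymes, from 50.2 and 40.1 to 200.6 and 112.7 CPM (1.77, SE 0.27, edgeR adjusted p = 0.00297). Npas2, a relative of CLOCK, fell from 6.36 and 6.84 to 0.966 and 1.98 CPM (-2.08, SE 0.54, edgeR adjusted p = 0.0417). Rora and Nfil3 lost their calls without either young library and Npas2 without any 1 library, and DESeq2 called neither Rora nor Npas2. Whether the age difference of these genes differed between classes was tested by edgeR's interaction term. It did for Hlf, Leo1 and Rora between podocytes and endothelial cells (5.24% of all genes passed), for Rora and Por between podocytes and mesangial cells (2.35%), and for Hlf, Por, Nfil3 and Bhlhe40 between endothelial and mesangial cells (2.23%). Against cluster 16 it did for Bhlhe40 in mesangial cells (1.45%) and for no listed gene in podocytes (2.42%) or endothelial cells (1.39%). Clock itself overlapped between the groups in all 4 classes, with fold changes from -0.25 to 0.09. Cry2 had fold changes of 0.34, 0.31 and 0.43 in the 3 named classes and Tef of -0.38, 0.35 and 0.08, and neither passed in any.

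**Figure D5:**
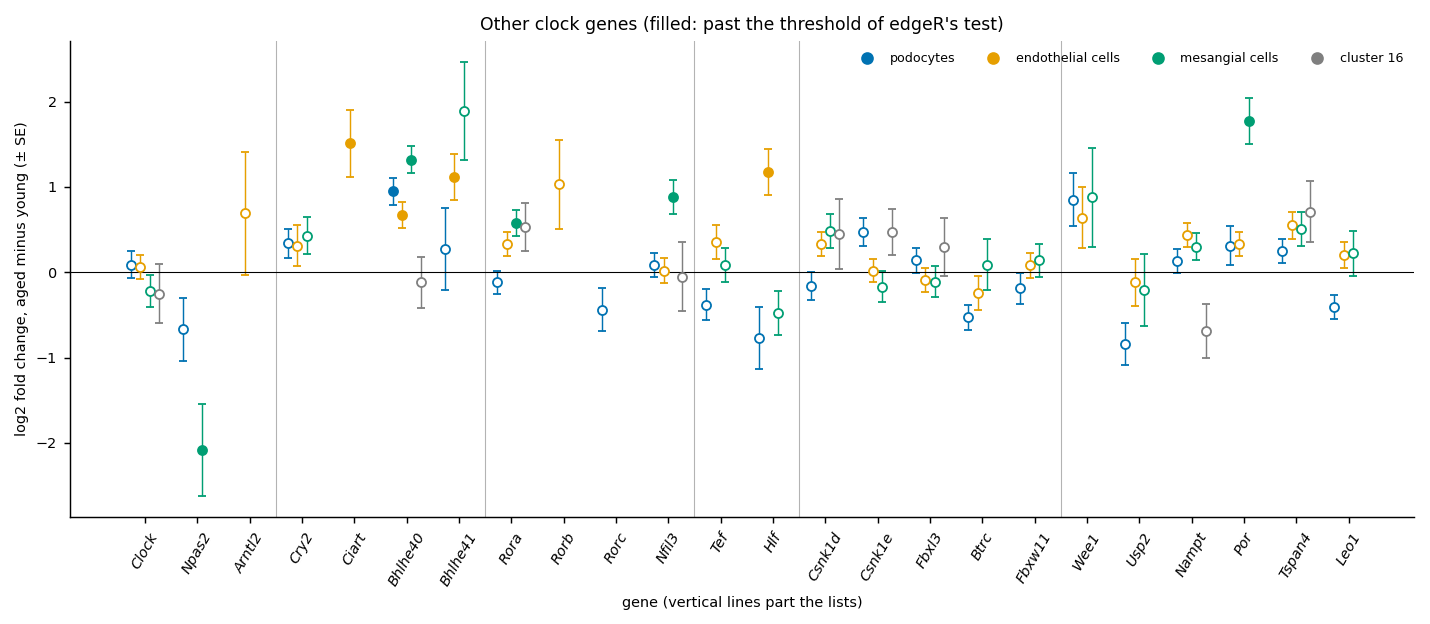
Log2 fold change, aged minus young, with SE of the clock genes that are not members, by class (colour), with vertical lines between the 6 lists and filled symbols past the threshold of edgeR's test. Bhlhe40 is filled in podocytes, endothelial and mesangial cells, and Npas2, in mesangial cells, is the one filled symbol below 0.

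Lists of other kinds were measured in the same sums. Of 13 heat shock genes, 9 rose in podocytes, 2 in endothelial cells and none in mesangial cells or cluster 16 (edgeR; 2 and 1 at an unadjusted p under 0.05). The podocyte count was 1 by DESeq2, 1 without aged replicate 2, 1 without young replicate 1, 4 without young replicate 2, 11 without aged replicate 1 and 0 with mixed cells kept. In endothelial cells leaving out aged replicate 2 gave 0 and leaving out aged replicate 1 gave 6. In mesangial cells 10 rose without aged replicate 1 and 3 fell without aged replicate 2. Hspb1, a small heat shock protein gene, had 1013 and 760.7 CPM in young and 1027 and 3231 CPM in aged podocyte libraries, so aged replicate 1 was near young replicate 1. Hspd1, a mitochondrial chaperone, had 235.8 and 225.3 CPM in young and 320.9 and 610.8 CPM in aged podocyte libraries (edgeR adjusted p = 0.00895), and Hspe1, its partner, rose with it. Summed over the 13 genes, aged replicate 2 had the highest level in all 4 classes. It was also the library with the lowest Cirbp in each. Aged replicate 1, whose Cirbp also lay below both young libraries throughout, had no such common place. Its sum lay between the young ones in podocytes (14620 against 14630 and 12810 CPM) and cluster 16 (9645 against 11690 and 8935). It was below both in mesangial cells (33860 against 38390 and 38790) and above both in endothelial cells (24710 against 23630 and 18910). Of the 5 glucocorticoid-responsive genes, Zbtb16 rose in 3 classes (in podocytes from 1 UMI in each young library), Fkbp5 in 2 and Tsc22d3 in podocytes. Endothelial Zbtb16 went from 5.73 and 4.87 to 81.7 and 64.7 CPM (3.77, SE 0.21), and endothelial Fkbp5 from 2.86 and 2.56 to 38.7 and 12.8 CPM (3.23, SE 0.49); both kept their calls under all 13 alternatives, whereas podocyte Zbtb16 lost its call by DESeq2, without young replicate 1, without aged replicate 1 and with mixed cells kept. Of 12 genes known to respond to tissue dissociation, 5 fell in mesangial cells and 8 in cluster 16, while 2 rose and 1 fell in podocytes and 2 rose in endothelial cells. None of the 5 mesangial genes passed without young replicate 2, and none of the 8 in cluster 16 without aged replicate 1. Jun, Egr1 and Btg2, early response genes, fell in both mesangial cells (-0.99, -1.34 and -1.25) and cluster 16 (-1.41, -1.59 and -1.10), and Ier3 rose in podocytes (0.54) and endothelial cells (0.89), in both not without aged replicate 1. Of the 4 temperature and RNA-processing genes, Srsf5, a splicing factor, fell in mesangial cells (-0.80, SE 0.15, edgeR adjusted p = 0.00904), a call lost without either young library, and no other gene of that list passed in any class. The part of heat shock, glucocorticoid response or dissociation in the member values was not tested.

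The genes most like Cirbp, Dbp and Arntl were sought by Pearson's r of log2 CPM, centred within class, over 16 sums of 4 classes and 4 libraries among 3541 genes; the sums share libraries, and r is a description. For Cirbp they were Pura and Hnrnpd (0.88 each), Akap8 (0.84), Fibp and Nfic (0.83 each). For Dbp they were Cox6b2 (0.89), Ldhb (0.81), Tsc22d1 (0.79), Prpf6 (0.77) and Dstn (0.75). For Arntl they were Ccar1, Tmf1 and Kif1b (0.84 each), then Rps6kb1 and Taf3 (0.83 each). Among the members, Nr1d1 and Nr1d2 had the highest r (0.83), Arntl and Nr1d1 had -0.57, Per2 and Cirbp -0.62, Per1 and Cry1 -0.64, and Cirbp and Rbm3 -0.02. The sums include those of cluster 16, where Arntl, Per1, Per2, Per3, Cry1 and Dbp did not pass the count filter. These 6 genes had 0 to 12 UMIs per library there, and the part of such thin sums in r was not tested.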

How the data were processed

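Single-cell RNA from 4 libraries, 2 of young and 2 of aged mice, was read from the deposited 10x matrices, which hold whole-number UMI counts per gene and barcode. Per the submitters' processing notes the authors made these counts with Cell Ranger 6.0.1 on GRCm38, while the labels' protocol names version 3.1.0; which made the deposited counts was not settled. Groups were taken from the sample titles. The 10 genes and all lists were chosen with earlier results of these data known.

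Barcodes with under 500 genes or over 20% mitochondrial UMIs were removed, leaving 29876. Scrublet's automatic threshold marked 0.4485% as doublets, so the highest scores were removed at 0.8% per 1000 cells (6.279%), leaving 28000 cells. Cells were clustered in scanpy 1.11.5 (2000 variable genes, 30 components, 15 neighbours, Leiden at resolution 1, leidenalg 0.10.2); none of the 10 genes was a variable gene. Clusters were named by the fixed markers; the naming rule was set after cluster results were seen and revised once, with no change in the cells of the 4 classes described. Clusters and cells of mixed marker content were left out of the sums.

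UMIs were summed per class and library and fitted with edgeR 4.0.16 (TMM, filterByExpr, quasi-likelihood test, Benjamini-Hochberg adjustment over all tested genes, threshold 0.05), checked on simulated counts. Median log2 fold changes over all genes were within 0.01 of 0. Between classes the library was a block. Alternatives were DESeq2 1.42.0, no filter on low counts, each library left out, a replicate block, other cell filters and clusterings, mixed cells kept, and library totals in place of TMM, the last chosen after seeing the data. A further alternative kept only clusters with at least 20 cells in each library. It left the sums of the 4 classes unchanged, so each call was kept there by construction. Totals per library ran from 18457791 to 42046542 UMIs, and intervals cover counting error only. Listed genes were named where they passed in at least 2 classes in 1 direction, with Clock, Npas2, Cry2, Tef, Rora, Nfil3, Bhlhe40 and Ciart wherever they passed the count filter. Bhlhe41, Hlf, Leo1, Por, Srsf5 and Tsc22d3 were named after their values were seen, as were the promoter stretches printed.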

Additional observations from a re-analysis of the deposited data

Results flagged for a closer look

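Among the 4 glomerular classes, Dbp is the one of the 10 genes whose aged libraries all lay above the young ones in 1 class and below them in another. The mesangial minus endothelial difference of its log2 fold changes was -2.09, and this difference was not tested because age chose the gene. By cluster, Dbp was not alone in this. Aged libraries lay above the young ones for Cry1 in endothelial cluster 0 and below them in podocyte clusters 2 and 7. Per3 did so between endothelial clusters 4 and 5, from few UMIs. The endothelial minus podocyte difference of Cry1 was 0.69 (SE 0.21), also not tested.

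Among the other clock genes, the age difference itself differed between classes by edgeR's interaction test, with Benjamini-Hochberg adjustment over all genes of each pair, for 6 genes. For endothelial cells minus podocytes, where 5.24% of all genes passed, the values were 1.95 for Hlf (adjusted p = 0.00723), 0.63 for Leo1 (adjusted p = 0.0182) and 0.46 for Rora (adjusted p = 0.0376). For mesangial cells minus podocytes (2.35% of genes) they were 1.48 for Por (adjusted p = 0.0379) and 0.75 for Rora (adjusted p = 0.0289). For mesangial minus endothelial cells (2.23%) they were -1.64 for Hlf (adjusted p = 0.024), 1.46 for Por (adjusted p = 0.00389), 0.89 for Nfil3 (adjusted p = 0.0482) and 0.70 for Bhlhe40 (adjusted p = 0.0345). For cluster 16 minus mesangial cells (1.45%) Bhlhe40 gave -1.38 (adjusted p = 0.0272).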

How the results depend on the processing

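Of the other clock genes, 1 passed in podocytes; the count was 2 with no filter on low counts, with the cell filter of 200 genes and 10% mitochondrial UMIs, and with no doublet removal, 0 with mixed cells kept, and 1 to 2 with each library left out. In endothelial cells 4 passed, 1 by DESeq2 and 1 to 5 with a library left out. In mesangial cells 5 passed, 3 by DESeq2 and 2 to 9 with a library left out. Over all genes, 404 passed in podocytes (28 with mixed cells kept, 211 by DESeq2, 222 without aged replicate 2, 266 without aged replicate 1), 718 in endothelial cells (1093 with no filter) and 627 in mesangial cells (361 by DESeq2, 1218 with no filter, 115 without young replicate 1, 190 without young replicate 2, 1154 without aged replicate 1, 1765 without aged replicate 2). In cluster 16, 132 passed, with 38 by DESeq2, 241 with no filter, 0 with the other cell filter and 0 to 70 with a library left out.

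The labels do not say whether replicate numbers pair the libraries. Across genes, r of same-numbered deviations was 0.01, 0.09, 0.01 and -0.01 in podocytes, endothelial cells, mesangial cells and the small cluster. Each r compares the difference between the young libraries with that between the aged libraries. With so few libraries per group, it cannot decide whether same-numbered libraries shared a batch. With a replicate block 3, 6 and 8 other clock genes passed in podocytes, endothelial and mesangial cells, and 700, 1286 and 1221 of all genes.

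Between podocytes and endothelial cells 7 members differed, 4 with no library block. Against cluster 16, podocytes gave 1, or 2 with library totals, and endothelial cells 3, or 1 with no library block and 1 to 3 with a library left out. The 6 genes whose age difference differed between classes became 3 to 7 with a library left out.

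The aged minus young share of cells with a Cirbp UMI, in percentage points, at 1000 UMIs was -5.85 for podocytes, -2.61 for endothelial cells and -4.42 for mesangial cells. It was -10.70, -5.21 and -7.48 at 2000 UMIs, and -14.81, -6.28 and -13.56 unthinned. Of the other classes, 3 had 20 cells in every library and 1 had 50.

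Among the alternative values of the members' fold changes, 405 moved by no more than the spread between replicates and 33 by more. Leaving out 1 of 2 libraries moves a group's mean by less than this spread almost by construction. Another alternative, only clusters with 20 cells in each library, held the same cells as the main sums. The count of 405 is therefore no measure of stability. Resolution 0.5 gave no cluster 16 value. Few UMIs limit Per3 and cluster 16.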
